A study of Mus musculus with 9 samples.

Results

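Broad domains of H3K27ac were examined in naive CD8+ T cells of the mouse. A domain was an island of the wild-type (WT) list, on chromosomes 1 to 19, at least 30 kb wide from its first to its last base. There were 1189 such domains among 64515 autosomal WT islands, 1.84% (95% Wilson interval 1.74 to 1.95%), and among 65563 WT islands on all chromosomes. Every island of the mutant (dKO) list that shared at least 1 bp with a domain was taken as its counterpart. The width in WT chose the domains, so their WT width is a description and not a finding, and their dKO widths are not independent of the choice.

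H3K27ac is an acetyl mark on histone H3 that is deposited at active promoters and enhancers. Most acetylated stretches are short, but at genes that define a cell type the mark often runs over neighbouring enhancers, promoters and introns without a break. Tcf1 (encoded by Tcf7) and Lef1 are DNA-binding proteins of the HMG family that act in T cell development and in the upkeep of naive T cells, and they recognise a short motif written here as CTTTGAT.

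WT cells came from hCD2-Cre+ Rosa26 GFP Tcf7+/+ Lef1+/+ mice. The dKO cells, labelled Tcf1-/-Lef1-/-, came from mice with Lef1 fl/fl and Tcf7 fl/fl alleles beside the same hCD2-Cre+ transgene and Rosa26 GFP reporter. All were untreated adults on a C57BL/6 background. Both groups thus carried the Cre transgene and the GFP reporter, and cells were sorted from spleen as GFP+ TCRbeta+ CD62Lhi CD44lo-med CD8+. The transgene is most active in mature T cells of the periphery, and GFP was used to mark cells in which Cre had acted because excision was not complete. The WT group had 4 H3K27ac samples and the dKO group had 3, with 1 input sample each, and the islands of a genotype were called on its pooled samples. No value per sample was analysed here, so no comparison has a replicate check, no p-value is given, and no 95% interval covers the spread between samples. Intervals of ratios cover the counting error of reads. Intervals of shares treat the regions, sites or genes counted as independent draws, although neighbouring domains can share a dKO island. A change in every cell and a change in the share of cells that carry the mark cannot be told apart in such pools.

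The autosomal islands held 81887244 counts in WT and 57324761 in dKO. Before any ratio was taken, dKO counts were scaled to the WT total, which added 0.51 to each log2 ratio of dKO over WT. Depth below means island counts per kb of island. As a check on the sorted population, all 7 measured CD8 T cell markers (Cd3d, Cd3e, Cd3g, Cd8a, Cd8b1, Lck and Cd247) had an island at their transcription start site (TSS) in both lists, and 6 of the 7 started in a domain. Markers of other lineages had islands too, at 9 of 12 B cell, 4 of 8 NK cell, 12 of 16 myeloid and dendritic and 2 of 5 erythroid genes in WT, and at 10, 5, 12 and 3 of them in dKO. Of these 41 genes 3 started in a domain, namely Cd79a, Cd22 and Itgax. The B cell regulators Pax5 and Ebf1 had no island at the TSS in either list.

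The domains can be read against DNA sites of changed accessibility that the study had listed from other libraries. C4 sites lost accessibility in dKO cells near downregulated genes, and C1 sites gained it near upregulated genes. The lists used here hold sites that the study had linked to changed genes, and they can be shorter than its full clusters. Of 97 autosomal C4 sites 38 lay in a domain (39.2%), as did 18 of 131 C1 sites (13.7%), and the domains made up 14.4% of the WT island width. As examples, the central 200 bp of 4 of the 5 C4 sites in domains that hold the Tcf/Lef motif are printed 5′ to 3′ on the forward strand of mm9, each named by the nearest gene of its domain. They were chosen for the motif, which most C4 sites in domains lack in this window. Capitals mark CTTTGAT or its reverse complement ATCAAAG, and none of the windows overlaps an annotated exon.
Zc3h12d C4 site, chr10:7544500-7544699: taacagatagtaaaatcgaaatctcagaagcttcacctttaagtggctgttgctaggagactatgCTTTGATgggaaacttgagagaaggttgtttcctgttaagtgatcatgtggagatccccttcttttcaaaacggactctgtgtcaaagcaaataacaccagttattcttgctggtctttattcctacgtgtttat
Lyst C4 site, chr13:13674328-13674527: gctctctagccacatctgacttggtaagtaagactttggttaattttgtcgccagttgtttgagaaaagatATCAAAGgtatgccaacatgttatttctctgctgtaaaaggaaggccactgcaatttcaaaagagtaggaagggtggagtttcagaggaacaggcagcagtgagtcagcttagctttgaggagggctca
Lef1 C4 site, chr3:130893690-130893889: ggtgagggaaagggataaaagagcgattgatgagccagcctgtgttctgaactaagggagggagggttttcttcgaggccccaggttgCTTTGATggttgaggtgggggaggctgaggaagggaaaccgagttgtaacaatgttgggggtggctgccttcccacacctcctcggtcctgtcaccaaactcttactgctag
Mmd C4 site, chr11:90125522-90125721: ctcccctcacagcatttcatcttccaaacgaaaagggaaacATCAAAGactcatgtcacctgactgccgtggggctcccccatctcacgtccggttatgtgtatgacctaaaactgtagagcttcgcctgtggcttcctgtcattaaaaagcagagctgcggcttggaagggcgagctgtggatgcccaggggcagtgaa

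Printed next are the C1 sites in the merged regions with the highest depth ratio (islands of both lists joined where they overlap), at Cd247 and Hivep3. They held no match to the Tcf/Lef motif, to CCGGAAG (ETS) or to TGTGGTT (Runx) in the same window. Unlike the C4 sites above they were not picked by motif, so the printed C4 and C1 windows cannot be compared for it.
Cd247 C1 site, chr1:167752293-167752492: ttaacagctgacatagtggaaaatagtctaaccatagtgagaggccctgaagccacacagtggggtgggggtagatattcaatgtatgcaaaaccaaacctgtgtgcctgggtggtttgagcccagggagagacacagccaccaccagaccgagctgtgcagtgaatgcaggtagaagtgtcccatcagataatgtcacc
Hivep3 C1 site, chr4:119709674-119709873: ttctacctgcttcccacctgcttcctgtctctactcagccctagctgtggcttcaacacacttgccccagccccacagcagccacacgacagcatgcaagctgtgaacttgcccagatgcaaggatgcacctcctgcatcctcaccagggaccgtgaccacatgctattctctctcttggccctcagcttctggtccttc

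The motif was scarce along the domains as a whole. On either strand, 2.80% of all 200-bp windows of the domains held CTTTGAT, against 3.15% of the windows of other WT islands. It was present in the central 200 bp of 5 of 38 C4 sites in domains (13.2%, interval 5.75 to 27.3%), 4 of 19 C2 sites, which lost accessibility near upregulated genes, and 0 of 18 C1 sites. Over all listed autosomal sites the shares were 18.6% for C4, 34.2% for C2 and 3.05% for C1. The Runx motif was ordered otherwise. It was present in 5 of 18 C1, 5 of 19 C2 and 5 of 38 C4 sites in domains and in 27.5, 20.3 and 18.6% of all listed C1, C2 and C4 sites, so the 2 C1 windows printed are not typical of C1 in lacking it, and 5.08% of all 200-bp windows of the domains held it. These matches are letters in a window and do not by themselves mark a bound site.

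The domains were few but held much of the mark. They covered 56.0 Mb, 14.4% of the autosomal WT island width, and held 15296794 counts, 18.7% of the autosomal WT island counts. The median domain was 40.4 kb wide, with a middle 50% from 34.2 to 53 kb, whereas the median autosomal WT island was 3.6 kb wide. Of the domains 342 were at least 50 kb wide and 33 were at least 100 kb wide. The 26 domains of exactly 30 kb had a median depth of 229 counts per kb (range 128 to 627), and the 30 islands just outside the limit, at 29.8 kb, had 224 counts per kb (140 to 593). A median of 98% of the width lay under dKO islands just inside the limit and just outside it alike.

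Wider islands were also denser in WT. The median depth was 133 counts per kb in islands under 5 kb, 177 in islands of 10 to 20 kb, 231 in domains of 30 to 50 kb and 264 in domains of at least 50 kb. The share of islands holding the TSS of a protein-coding gene grew likewise, from 11.9% under 5 kb to 58.2% at 30 to 50 kb and 69.0% above. A wide island has more chances to hold a TSS than a narrow one, so this share grows with width in part by construction.

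**Figure D1:**
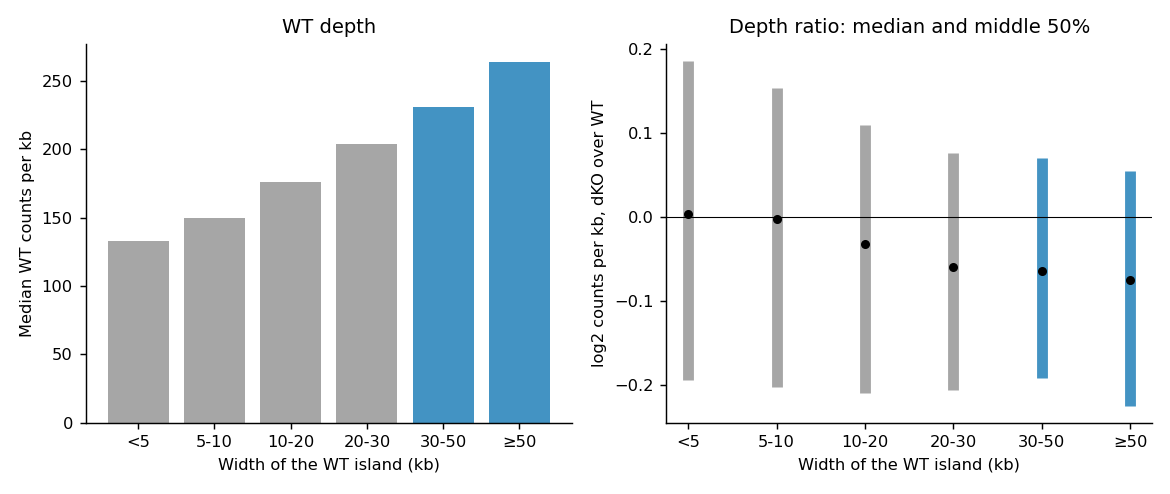
Left, median WT depth (island counts per kb) of autosomal WT islands by width in kb, with the domains in blue; right, median (dot) and middle 50% (bar) of the log2 ratio of dKO to WT depth for islands with a dKO counterpart. Depth climbs from 133 to 264 counts per kb across the classes, and the median ratio moves from 0.00 to -0.08 while the bars overlap in all classes.

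The widest domain, 179.8 kb at Klf13 (mm9 chromosome 7, 71036601 to 71216400), lay over a Kruppel-like zinc finger factor gene and held 70215 WT counts. Its depth was 391 counts per kb in WT and 363 in dKO after scaling, and 99.2% of it lay under 2 dKO islands. Next in width was a domain of 166.6 kb over the starts of Rph3al, 1700016K19Rik and Fam101b (chromosome 11, 75726401 to 75893000), with 275 and 252 scaled counts per kb. The domain over Tcf20 and Nfam1, an ITAM-bearing activation adaptor gene, was 161.2 kb wide, with depths of 227 and 190. The domain over Zmiz1, which encodes a transcriptional coactivator of the PIAS-like family, was 147.8 kb wide, with depths of 295 and 277. The fifth, 145.2 kb on chromosome 9 (61434001 to 61579200), held no protein-coding TSS, its nearest being that of Rplp1 at 183145 bp, and had depths of 265 and 270. In these 5 domains the log2 depth ratio ran from -0.26 to 0.03 and at least 96.4% of the width lay under dKO islands.

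The densest domains were narrower. A domain of 33.2 kb on chromosome 7 (75415001 to 75448200), 5882 bp from Pgpep1l, had 824 WT counts per kb. A domain of 42.0 kb on chromosome 9 (32711401 to 32753400), whose nearest protein-coding start at 207774 bp belongs to Ets1, had 809, and the Gramd3 domain on chromosome 18 (56590201 to 56641200) had 751. A domain of 31.6 kb on chromosome 6 (41484001 to 41515600), 12215 bp from Prss2, had 746, and the domain over Selplg, the gene of the P-selectin ligand of leukocytes, had 738. All 5 were less dense in dKO, with scaled depths of 415, 556, 271, 559 and 602 counts per kb in the same order. They were chosen for high WT depth, which is also the denominator of the ratio, so this direction supports nothing by itself. Domains were named by protein-coding genes alone, so T cell receptor gene segments, which are annotated as another type, could not appear as a label.

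In dKO the acetylated ground under the domains was almost always still called. The median domain had 98.0% of its width under dKO islands, 313 domains (26.3%) lay wholly inside a single dKO island, and 1 domain had no dKO island at all, at Dysf. Among all autosomal WT islands the share with no dKO island was 14.6%. Over all base pairs, 95.9% of the domains lay under dKO islands, against 79.5% of the other WT islands. A wide island has more chances to meet another than a narrow one, so these shares move with width by construction.

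Although covered, most domains were not covered in 1 piece. Exactly 1 dKO island touched 423 domains (35.6%), 2 touched 320, 3 touched 233, 4 touched 118, and 5 or more touched 94 (7.91%). In total 765 domains, 64.3% (interval 61.6 to 67.0%), met at least 2 dKO islands, against 18.5% of all autosomal WT islands, a share that also grows with width (61.5% at 20 to 30 kb). The breaks were narrow. Of 1588 gaps between dKO islands inside domains 1376 (86.6%) were at most 1 kb, the median gap was 0.6 kb and the largest was 14.4 kb. The smallest gap found was also 0.6 kb, which is the least that island calls with a window of 200 bp and a gap of 400 bp can leave. When dKO islands at most 1 kb apart were joined, the domains with at least 2 dKO islands fell to 172. The dKO pool also had fewer counts than the WT pool, and the part of depth in these breaks was not tested.

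**Figure D2:**
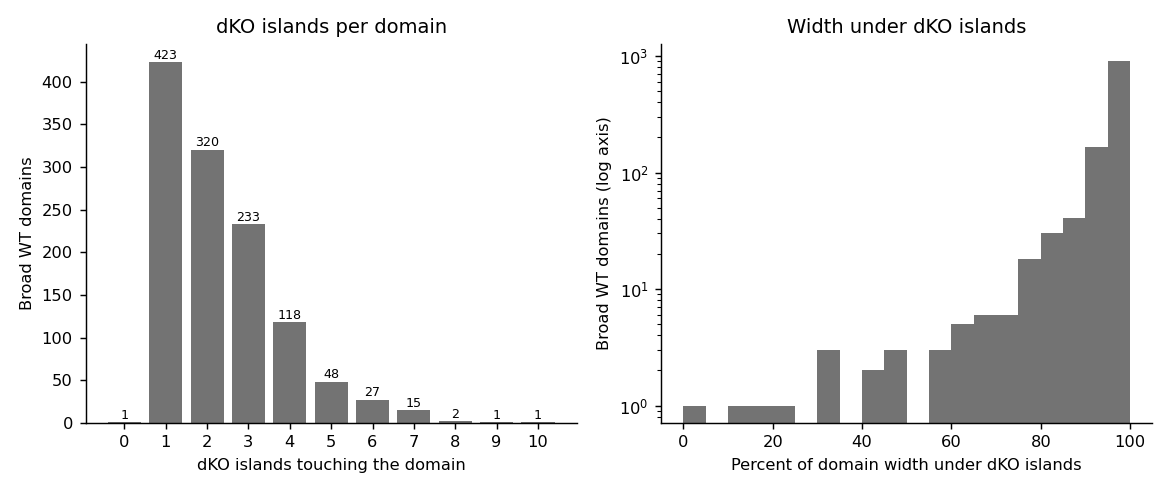
Left, number of domains by the number of dKO islands that touch them; right, number of domains (log axis) by the percent of their width under dKO islands, in steps of 5 percentage points. The left bars fall from 423 domains at 1 dKO island to 1 domain at 10, while the right bars pile up above 95%.

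The most divided domain lay on chromosome 6 (140608801 to 140690400, 81.6 kb, annotated start of Gm11077) and met 10 dKO islands that together were also 81.6 kb wide. Of the domain 86.5% lay under these islands, which ran 5.6 and 5.4 kb beyond its borders and left gaps of up to 3.6 kb. The domain had 262 counts per kb in WT and 213 scaled counts per kb in dKO. A domain in the body of Sorcs2, a sortilin-family receptor gene, met 9 dKO islands, with depths of 172 and 144. Cytip, which encodes a cytohesin-binding protein of lymphocytes, lay in a domain that met 8, with depths of 438 and 342. Bcl2l1, the gene of the survival protein Bcl-xL, lay in another that met 8, with depths of 223 and 219. The Tcf20 and Nfam1 domain met 7. As a group, the 94 domains with 5 or more dKO islands had a median log2 depth ratio of -0.17, and the 423 with 1 dKO island had -0.04.

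A small set of domains was largely uncovered in dKO. In 12 domains (1.01%) under 50% of the width lay under dKO islands, and in 32 (2.69%) under 75%. At Dysf, the gene of the membrane repair protein dysferlin, a WT island of 31.2 kb with 5819 counts had no counterpart (chromosome 6, 84156001 to 84187200). At Plch2, a phospholipase C gene, 36.0 kb with 5446 counts (chromosome 4, 154355201 to 154391200) faced 2 dKO islands of 4.8 kb in all with 401 counts, which covered 13.3%. The next domain along the chromosome, also over Plch2, was covered for 30.8% of its width. In the body of Sorcs2 a domain of 33.6 kb with 4850 counts faced 6.6 kb with 565 counts, and in the body of Ptk2, the focal adhesion kinase gene, 38.2 kb with 6577 counts faced 8.6 kb with 974 counts. Fbln1, which encodes an extracellular matrix protein, had 34.0% of its domain covered, and the domain at Atoh8, the gene of a basic helix-loop-helix factor, had 34.5%.

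These 12 domains were sparse in WT, with 132 to 217 counts per kb, all below the median of 240 over all domains. Where dKO islands remained, their depth was near that of WT. The log2 depth ratio over the 11 such domains ran from -0.46 to 0.20, with a median of -0.08, while the median log2 ratio of counts over their merged regions was -1.37. A low covered width was fixed by the choice of these domains, and an island has a least depth by the way it is called. Of the 12, 7 lay within gene bodies without a TSS, 3 held a TSS and 2 were intergenic.

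The outer borders moved outward more often than inward. Of 2376 borders of the 1188 domains with a dKO island, 1371 (57.7%) lay farther out in dKO, 583 (24.5%) were at the same base and 422 (17.8%) lay farther in. Outward moves had a median of 4.6 kb and inward moves one of 0.8 kb. Each dKO island was taken whole, which favours outward moves, and border shares over all WT islands were not set beside these. Wider dKO counterparts were not particular to the domains. The median log2 ratio of dKO to WT width was 0.10 for domains and 0.18 over all 55119 autosomal WT islands with a dKO island. The largest outward move, 209.4 kb, belonged to a domain whose dKO island ran on across neighbouring WT islands, and the largest inward move was 29 kb, at Plch2. Both borders lay outside in 424 domains and inside in 53. Relative to the gene whose TSS was nearest the domain centre, the upstream border lay inward in 18.5% and the downstream border in 15.5% of 729 domains with a TSS.

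Fusion with neighbours shapes how the counts can be compared. A dKO island reached outside 947 domains (79.6%), 59 dKO islands touched 2 or more domains, and 120 domains shared a dKO island with another domain. Taking each dKO island whole, the median log2 count ratio of the 1188 domains was 0.07 (SD 0.60 across domains) and the median log2 depth ratio was -0.07 (SD 0.24). The corresponding medians over all 55119 autosomal WT islands with a dKO island were 0.12 and -0.01. Across domains the count ratio followed the width ratio (Spearman rho 0.856, a description only, since both hold the dKO width).

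To compare like with like, islands of both lists that shared at least 1 bp, directly or through others, were merged, so that a neighbour covered by a dKO island also counts on the WT side. The domains fell into 1121 merged regions, 61 of which held 2 or more domains, and 1120 had islands in both lists. Over these the median log2 ratio was -0.04 for counts and -0.04 for depth (SD 0.20), against -0.07 and -0.02 over all 44698 autosomal merged regions with both. Setting the median ratio of all merged regions to 1 adds 0.07 to every ratio and moves the median depth ratio with whole islands from -0.07 to 0.01, so the sign of these medians rests on the scaling.

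A ratio of 1.5 in either direction was called a difference, and few domains reached it in depth. With dKO islands taken whole, depth was lower in dKO in 17 of 1188 domains (1.43%, interval 0.895 to 2.28%) and higher in 18 (1.52%, 0.960 to 2.38%), against a background of 5.48% lower and 3.98% higher among all autosomal WT islands with a dKO island. By counts, 47 domains were lower (3.96%) and 201 higher (16.9%), against 11.3% and 30.7%. Over merged regions, 13 of 1120 (1.16%) were lower and 2 (0.179%) were higher in depth, against 4.49% and 1.13%, and by counts 48 (4.29%) were lower and 5 (0.446%) higher, against 14.4% and 11.1%. Every one of these shares lay below its background. The cause was not tested.

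Neighbours were set beside these calls. Of all 1189 domains, 679 lay in a merged region with another WT island and 429 had dKO islands that reached over 10 kb beyond them. Of the 201 domains higher by counts, 200 lay in a merged region with at least 1 other WT island, and 6 lay in a merged region whose counts differed by 1.5 times. All 18 domains higher by depth lay in merged regions with other WT islands, with dKO islands that reached over 10 kb beyond the domain, and 3 of them lay in a merged region still called by depth. Of the 17 domains lower by depth, 12 lay in a merged region still called. In the named examples the merged value is therefore given with the value for whole islands.

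**Figure D3:**
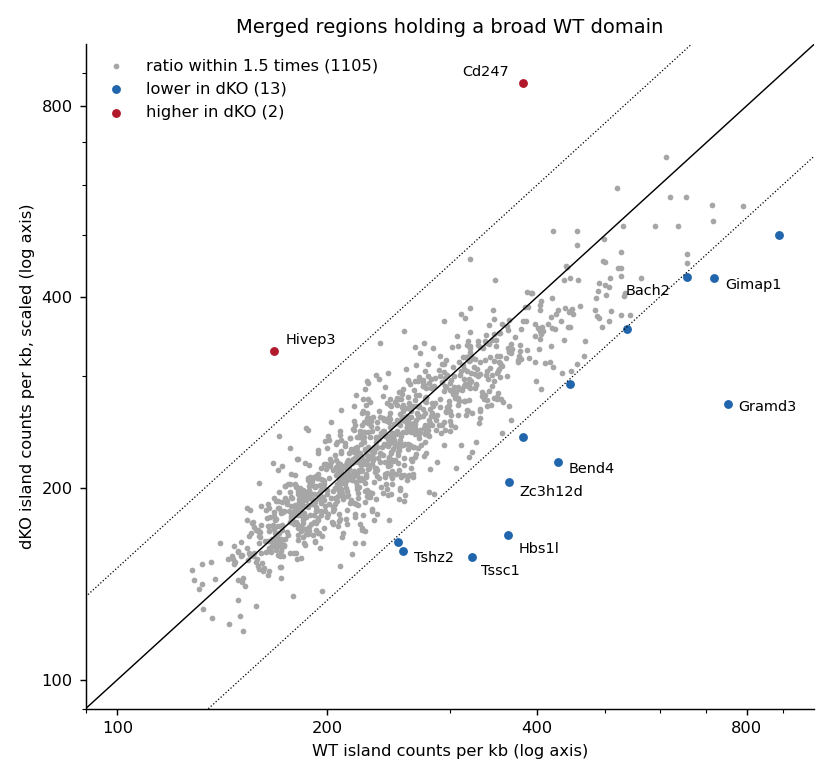
Island counts per kb in WT (x, log axis) and in dKO after scaling (y, log axis) for the 1120 merged regions that hold a domain and have islands in both lists; the solid line marks equal depth, the dotted lines a ratio of 1.5. Blue marks the 13 regions lower in dKO and red the 2 higher, Cd247 and Hivep3, with some genes named by the domain they hold.

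The lowest depth ratio belonged to Gramd3, a GRAM domain gene on chromosome 18. Its domain of 51.0 kb held 38310 counts in WT, and 2 dKO islands over 49.4 kb held 9383. The depth was 751 counts per kb in WT and 271 scaled counts per kb in dKO, a log2 ratio of -1.47 (interval -1.50 to -1.44). The borders moved by 0.2 and 0.6 kb only, so the width was almost the same while the counts were not.

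Next came an intergenic domain 21385 bp from Hbs1l (chromosome 10, 20949801 to 20994400), 44.6 kb wide. It held 16200 counts in WT, and its 7 dKO islands held 3552 over 30 kb. Its depth was 363 counts per kb in WT and 169 in dKO, a log2 ratio of -1.10 (-1.16 to -1.05), and 67.3% of it remained under islands. Hbs1l names it only as the nearest protein-coding TSS, which need not be the gene it serves. The study described weaker contacts upstream of Myb, also on chromosome 10, in dKO cells. Where Myb lies beside this domain was not examined here. The domain in the body of Tssc1 (chromosome 12, 29449201 to 29505200) went from 18071 counts to 4540 in 5 islands, with depths of 323 and 156 and a ratio of -1.05 (-1.10 to -1.003). Here both the depth and the covered width were lower.

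At Bend4, a gene of the BEN domain family, a domain of 53.8 kb held 23082 counts in WT against 5322 in 4 dKO islands, with depths of 429 and 220 and a ratio of -0.97 (-1.01 to -0.92). The domain of highest WT depth, near Pgpep1l, had a ratio of -0.99 for whole islands. Its dKO island ran 31.6 kb beyond the domain, however, and the merged region of 140 kb had depths of 406 and 286 and a ratio of -0.50. The value for whole islands thus mixed the dense domain with sparser ground beside it.

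Also lower by 1.5 times over merged regions, though not among the 5 lowest whole-island ratios, were Zc3h12d, an RNA regulatory zinc finger gene (-0.83), a domain 3385 bp from Os9 (-0.83 over its merged region), Gimap1 and Gimap5, GTPases tied to lymphocyte survival (-0.74), Tshz2 (-0.69), Usp12 (-0.66), both Bach2 domains (-0.61 each), Galnt9 (-0.61), and the domain over Leprotl1 and Tmem66 (-0.60). These were named after their values were seen. The domain over Gimap1 and Gimap5 had identical borders in both lists, 32.2 kb apart, with 23111 counts in WT and 9660 in dKO, so its ratio of -0.74 (-0.78 to -0.71) rests on depth alone. At Bach2, which encodes a repressor that holds T cells in a naive or memory state, 2 adjoining domains of 67.0 and 48.8 kb had WT depths of 656 and 446 and dKO depths of 430 and 292.

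The 5 highest whole-island ratios were at Smad3 (1.20 and 1.01), 6330403A02Rik (1.20), Cd247 (1.17) and Hivep3 (1.05), and merging told them apart. At Cd247, the gene of the CD3 zeta chain of the T cell receptor (chromosome 1, 167717601 to 167763600), the WT domain of 46.0 kb held 17737 counts at 386 counts per kb. A single dKO island of 76.0 kb began at the same base, ran 30 kb farther and held 46112 counts, or 867 scaled counts per kb. A second WT island lay under that dKO island, and with it the WT region was 75.4 kb wide with 28806 counts at 382 counts per kb. The merged ratio was 1.18 (1.16 to 1.20). The dKO island has a single count, so the depth over each WT island cannot be told apart.

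At Hivep3, the gene of a large zinc finger protein (chromosome 4, 119618801 to 119756200), 7 WT islands including 2 domains lay under a single dKO island of 137.4 kb. They held 22377 counts over 133.2 kb, or 168 counts per kb, against 31604 counts and 329 scaled counts per kb in dKO. The merged log2 ratio was 0.97 (0.94 to 0.99). At Smad3, an effector of TGF-beta signals, 3 domains and 5 other WT islands met 4 dKO islands, one of them 139.0 kb wide. The 3 domains had WT depths of 177, 333 and 163 counts per kb and whole-island ratios of 1.01, 0.23 and 1.20, and the merged ratio was 0.51 (0.49 to 0.53), which is below 1.5 times. At 6330403A02Rik, the sparse domain of 132 counts per kb joined dense neighbours in dKO, and the merged ratio was -0.19 (-0.21 to -0.17), opposite in sign to the value for whole islands.

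**Figure D4:**
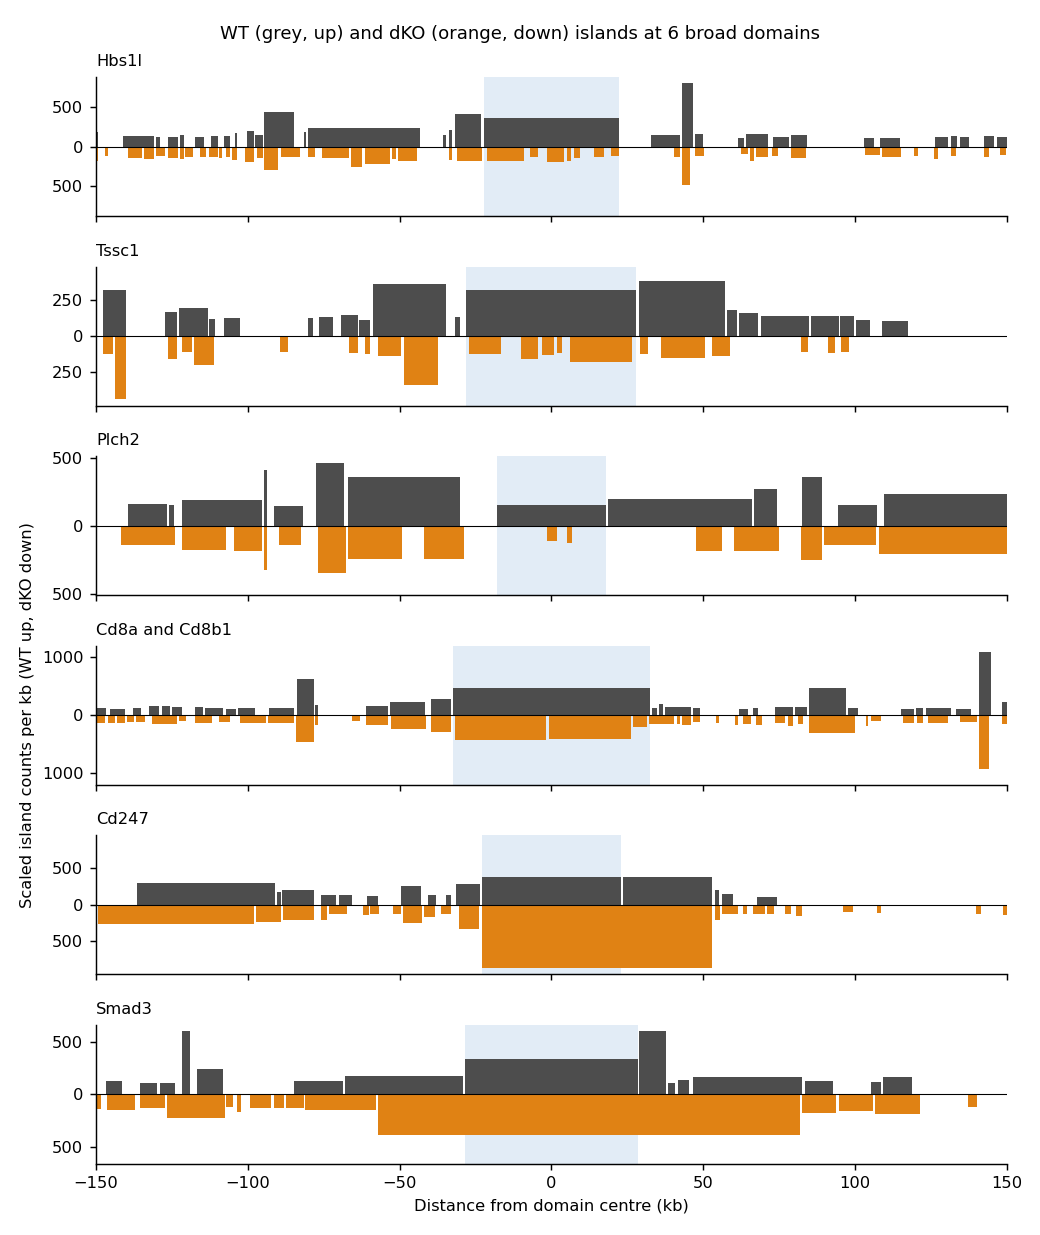
WT islands (grey, upward) and dKO islands (orange, downward) within 150 kb of the centre of 6 domains, by distance in kb; bar height is island counts per kb, scaled in dKO, and the blue band is the domain. The Hbs1l and Tssc1 domains break into 7 and 5 lower dKO islands, 2 short islands remain at Plch2, 1 dKO island spans the Cd247 domain and its neighbour at greater depth, and 1 dKO island joins the 3 Smad3 domains.

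Domains were grouped by what lay in them. The TSS of a protein-coding gene lay in 729 domains (61.3%, interval 58.5 to 64.0%), against 19.5% of all autosomal WT islands and 37.5% of those of 10 to 30 kb. At 20 to 30 kb the share was 45.2%, and it grows with width in part by construction. A further 257 domains (21.6%) touched a protein-coding gene body without a TSS. The other 203 (17.1%) touched no protein-coding gene and are called intergenic, whatever genes of other types they hold. By base pairs, 5.11% of the domains lay in exons, 56.3% in introns and 38.6% between protein-coding genes, against 5.89, 49.6 and 44.5% of the other islands. The median WT depth was 260.2 counts per kb in domains with a TSS, 202 in gene-body and 218 in intergenic domains. In domains with a TSS the median log2 depth ratio was -0.09, and those of gene-body and intergenic domains were -0.03 and -0.01. In 513 domains with the TSSs of 1 gene, the acetylated stretch was longer downstream of the first TSS than upstream of it in 364 (71.0%), with medians of 28.3 kb downstream and 12.7 kb upstream. Later starts of the same gene fall on the downstream side by this choice, and no share for other islands was set beside it.

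In all, 1034 of 21275 autosomal protein-coding genes (4.86%) had a TSS in a domain. They had a median length of 24.2 kb, against 15.2 kb for the others. Lists of genes with a known role in T cells were set against this background, with counts but no test, since long genes and dense gene clusters can meet a domain more easily. The lists were drawn up with earlier results of these data known. The background holds all genes, whether or not they are expressed in these cells, so the shares are descriptions only.

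Among T cell transcription factor genes, 16 of 35 (45.7%) started in a domain. They included Tcf7 and Lef1 themselves, Bcl11b, which guards T cell identity, and Ets1, Bach2, Ikzf1, Runx1, Runx3, Gata3 and Klf2. In their 17 merged regions the median log2 depth ratio was -0.09, with a range from -0.61 (Bach2) to 0.25 (Runx1), and 12 of 17 lay below 0, against 682 of 1120 (60.9%) for all merged regions with a domain. Bach2 alone was past 1.5 times. Ikzf1, which encodes the lymphoid zinc finger factor Ikaros, had 656 counts per kb in WT and 452 in dKO (-0.54). Bcl11b had 388 and 386 (-0.01).

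Ets1, the founding member of the ETS family, started in 2 domains from alternative TSSs, and they differed. The domain over its downstream starts (32490801 to 32573600) had 657 counts per kb in WT and 467 in dKO, a log2 ratio of -0.49, and the other (32393001 to 32451800) had 309 and 317, a ratio of 0.03. At the targeted genes, the Tcf7 domain of 70.0 kb had a depth ratio of -0.11 taken whole and 0.12 over its merged region, and the Lef1 domain of 104.4 kb had -0.44 and -0.38. At least 94.6% of both domains lay under dKO islands, which is no check of the deletion, since the islands do not resolve the floxed exons.

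Of genes of the T cell receptor complex and its signalling, 15 of 32 (46.9%) started in a domain. Their 13 merged regions had a median depth ratio of -0.11. Cd247, at 1.18, was the sole one past 1.5 times. The coreceptor genes Cd8a and Cd8b1 shared 1 WT domain of 65.0 kb at 461 counts per kb. In dKO it met 4 islands, with a scaled depth of 374 taken whole (-0.30), and the merged region had 415 and 363 counts per kb (-0.19). Lck, the kinase that opens receptor signalling, had 433 and 366 counts per kb (-0.24), and the shared domain of Cd3d and Cd3g had a merged ratio of 0.01.

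Of genes of naive homing, survival and quiescence, 9 of 25 (36.0%) started in a domain, with a median merged depth ratio of -0.25, and 7 of 9 regions lay below 0. None was past 1.5 times over merged regions. Among all domains in the highest quartile of WT depth (304 to 824 counts per kb) the median merged ratio was -0.16. This list was not matched for WT depth. The domain over Ccr7, the lymph node homing receptor gene, also holds Igfbp4 and Tns4 and was 134.6 kb wide, with 410 counts per kb in WT and 270.5 in dKO (-0.60 whole, -0.52 merged). Btg1, an antiproliferative gene, had -0.71 whole and -0.43 merged, and Cxcr4, a chemokine receptor gene, -0.44 and -0.25. Bcl2, the survival gene, had -0.29 both ways. Klf2, the gene of a zinc finger factor of T cell quiescence, went the other way, with 521 counts per kb in WT and 594 in dKO (0.19), and S1pr1 had 500 and 454 (-0.14).

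Activation and immediate early genes were also well represented in these naive cells, with 14 of 28 (50%) in domains and a median merged ratio of -0.04, and 7 of 14 regions below 0. The ratios ran from -0.40 (Dusp2, a MAP kinase phosphatase gene) to 0.30 (Pim1, a survival kinase gene). Cytotoxic effector and inhibitory receptor genes were not, with 2 of 28 (7.14%, interval 1.98 to 22.6%). Tbx21, the T-bet gene, had 279 counts per kb in WT and 325 in dKO (0.22 whole, 0.31 merged). Il2rb, the receptor beta chain for IL-2 and IL-15, had -0.36 whole and -0.00 merged, its dKO islands reaching 63.6 and 109.4 kb beyond the domain. Of ubiquitous genes 2 of 16 (12.5%) started in a domain, Actb with a ratio of 0.05 and Ppia with -0.22 whole and -0.16 merged.

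**Figure D5:**
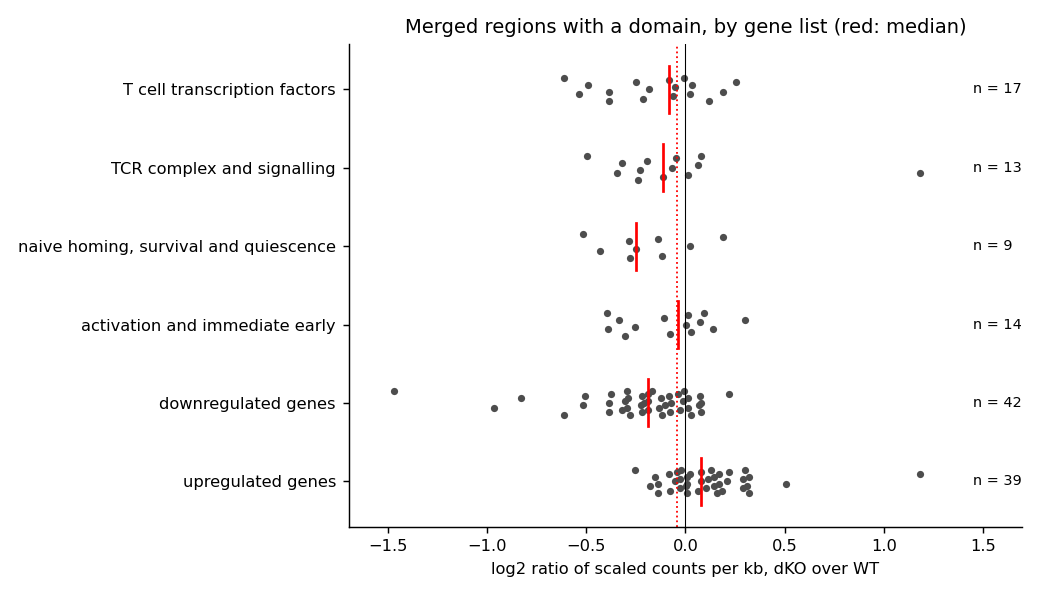
Each point is a merged region holding a domain that contains the TSS of a gene of the list named at left; the x axis is the log2 ratio of dKO to WT depth, the red bar the median of the list and the dotted line the median of all 1120 merged regions with a domain (-0.04). The downregulated genes reach down to -1.47 and centre at -0.19, the upregulated genes centre at 0.08, and the point at 1.18 in 2 lists is Cd247.

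Genes that the study's RNA-seq called changed in dKO cells were set against the domains next. The RNA-seq libraries were not part of these files. Of downregulated genes 46 of 236 (19.5%, interval 14.9 to 25.02%) and of upregulated genes 38 of 282 (13.5%, 9.98 to 18.0%) had a TSS in a domain, against 4.86% of all. Whether genes expressed in these cells at all would give a like share was not tested. In the 42 merged regions of downregulated genes the median depth ratio was -0.19, 34 of 42 lay below 0, 4 were lower by 1.5 times and 0 higher. Over all 1120 regions 60.9% lay below 0, 1.16% were lower and 0.179% higher, and over the 703 regions with the TSS of any protein-coding gene 461 lay below 0, with a median of -0.06. Those 4 were Gramd3, Bend4, Zc3h12d and Galnt9. In the 39 regions of upregulated genes the median was 0.08, 12 of 39 lay below 0, 0 were lower by 1.5 times and 1, Cd247, was higher. Both sets moved little in most regions. Among the downregulated genes, Dapl1 had -0.51, Lef1 -0.38 and Fam117a 0.22, and among the upregulated genes Smad3 had 0.51, Sytl2 0.32 and Ncf1 -0.26.

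The accessible sites fell into domains with different ratios. The 28 domains with C4 sites had a median depth ratio of -0.30 taken whole, and over their 28 merged regions it was -0.25, with 27 of 28 below 0. The 15 domains with C1 sites had 0.23, and 0.22 over 14 merged regions, with 1 of 14 below 0. The 17 domains with C2 sites had -0.08 taken whole and -0.08 merged, near the value of all domains. These directions were not particular to domains. Other WT islands with such sites had whole-island medians of -0.375 for C4 (51 islands), 0.175 for C1 (94) and -0.07 for C2 (50). The sites are narrow (median widths 182 bp for C1, 194 bp for C2 and 224 bp for C4) and the values are those of whole islands, so they do not give the change at the site itself.

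Super enhancers (SEs), stitched clusters of H3K27ac islands, had been ranked by the study on these same libraries, so their directions here are not independent evidence. The lists of SEs and hubs used here hold those that the study had linked to genes of changed expression, a subset of all it found, and no share over all SEs or hubs was computed. Of 48 such autosomal WT-prepotent SEs 29 (60.4%) touched a domain, as did 48 of 88 dKO-prepotent SEs (54.5%). They took in 44 and 83 domains, with median depth ratios of -0.24 and 0.10, against -0.09 and 0.14 in the other WT islands they touched. Gene-linked WT-specific hubs, stretches with stronger Hi-C contacts in WT, touched 35 domains, with a merged median of -0.21 and 31 of 33 regions below 0, and dKO-specific hubs touched 12, with 0.08 and 4 of 9. Taken whole, the medians of these hub domains were -0.25 and 0.07, against -0.10 and 0.05 in the other WT islands touched.

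Small RNA genes lay in the domains too. The hairpins of 73 of 1468 annotated autosomal miRNA genes (4.97%) began in 57 domains, and 29 of the 73 were found by symbol in the RefSeq table, with 51 mature sequences. Those below, chosen after the domains were known, are a selection of blood cell miRNAs and of pairs that share a seed. U stands for uracil, and capitals mark the seed, bases 2 to 8, through which a miRNA pairs with its targets.
mmu-miR-142a-5p: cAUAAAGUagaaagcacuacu
mmu-miR-142a-3p: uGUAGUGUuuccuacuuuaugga
mmu-miR-342-3p: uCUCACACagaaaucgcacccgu
mmu-miR-181c-5p: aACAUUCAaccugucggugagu
mmu-miR-181d-5p: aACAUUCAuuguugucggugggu
mmu-miR-27a-3p: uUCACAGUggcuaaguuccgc
mmu-miR-27b-3p: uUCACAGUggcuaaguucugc

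The hairpin of Mir142, an abundant blood cell miRNA, lay at chromosome 11, 87570366 to 87570429, in a domain labelled by Bzrap1 with 716 counts per kb in WT, and the depth ratio there was -0.45. Mir342 lay in the Evl domain, with 317 counts per kb and a ratio of -0.12. Mir181c and Mir181d, which share a seed, lay in 1 domain with 232 counts per kb and a ratio of -0.05 (-0.04 merged). Mir27a and Mir27b share a seed from different chromosomes. Mir27a lay with Mir23a and Mir24-2 in the Zswim4 domain of 415 counts per kb, whose ratio was -0.48 taken whole and -0.04 merged, and Mir27b lay with Mir23b in a domain of 159 counts per kb with a ratio of 0.00 (-0.06 merged). Others of the same kinds, not printed, had ratios above 0 or of both signs. Mir150 had 0.12 (0.07 merged), Mir144 and Mir451 shared a domain with 0.13, Mir200a, Mir200b and Mir429 shared one with 0.02, and Mir200c had -0.31 (-0.16 merged). Counts in islands do not give the level of any miRNA.

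In sequence, pooled over all base pairs, the domains differed little from other islands. Their GC content was 48.4% over all base pairs, against 46.4% in the other WT islands and 47.2% in those of 10 to 30 kb. They had 13.3 CpG dinucleotides per kb, against 13.0. Matches on either strand to CTTTGAT came at 0.147 per kb, against 0.166 in other islands, those to CCGGAAG at 0.0567 against 0.0570, and those to TGTGGTT at 0.268 against 0.275. Among the domains, the 297 in the lowest quartile of merged depth ratio had 0.159 CTTTGAT matches per kb and a GC content of 47.0%, and the 297 in the highest had 0.140 and 49.0%. The motif is rich in A and T, and the part of GC content in that difference was not tested.

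The ratio of dKO to WT depth fell as WT depth rose. In the 297 domains of the lowest quartile of WT depth (128 to 197 counts per kb) the median whole-island depth ratio was 0.05, and in the following quartiles it was -0.04, -0.09 and -0.22. By merged regions the 4 medians were 0.03, -0.02, -0.07 and -0.16. The lowest quartile held 14 of the 18 domains higher by depth, and the highest held 15 of the 17 lower by depth. Over merged regions with a domain, WT depth and the ratio had a Spearman rho of -0.437, and over all autosomal merged regions it was -0.582. WT depth is also the denominator of the ratio, so part of such a relation is arithmetic. Sparse domains were more often divided, 78.5% in the lowest quartile of WT depth against 49.2% in the highest.

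The comparison was also made from the dKO list. Of its 81479 autosomal islands 1273 were at least 30 kb wide, with a median width of 40.6 kb, and these held 19.5% of autosomal dKO island counts. Of these 815 (64.0%) touched a WT domain and 458 did not. Likewise 811 of the 1189 WT domains (68.2%) touched a dKO island of at least 30 kb and 378 (31.8%) did not. Broad dKO islands met 2 or more WT islands in 67.2% of cases, close to the 64.3% of WT domains that met 2 or more dKO islands. Division into several islands was thus seen in both directions of the comparison.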

How the data were processed

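H3K27ac ChIP-seq was run on 4 WT and 3 dKO samples with 1 input each. The authors aligned reads to mm9 (Bowtie2 2.2.5 in the submitters' processing notes, which also name FastQC), kept uniquely mapped reads, pooled the samples of a genotype and called islands with SICER 1.1 (window 200 bp, gap 400 bp, FDR 0.01). The deposited values are whole-number read counts per island, not scaled for depth or width. A stretch without an island has no count. Input samples had no values of their own here.

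Positions are given counted from 1. Genes came from GENCODE vM1 on NCBIM37, the mm9 assembly. The members and the gene lists were chosen with earlier results of these data known. Counts were scaled to the autosomal island total of each list, and a ratio of 1.5 was called different. Intervals of ratios are Poisson and those of shares Wilson, both at 95%. There were 2 island lists and no replicates, so no test was made. Merged regions were planned as an alternative for the medians. Their calls were added after seeing the data, because dKO islands fused with neighbours. Named were the 5 widest and 5 densest domains, the 5 largest depth ratios each way, the 5 with the most dKO islands, the 5 least covered, and those with a TSS of a listed gene; others are said to be chosen later. Of the list, site and hub files only names and positions were used, never their values. The steps were checked on simulated lists. Python 3.11.15, numpy 2.4.6, pandas 2.3.3 and scipy 1.17.1 were used. Gene symbols absent from GENCODE were matched through RefSeq synonyms (GRCm38.p6), and miRNA sequences are from that RefSeq table. Some values of listed genes are not reported here.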

Additional observations from a re-analysis of the deposited data

How the results depend on the processing

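No paired analysis was possible because each list pools the samples of a genotype, so replicate numbers have no columns of their own; no replicate could be left out for the same reason. Of 54 comparisons with an alternative, 25 stayed close to the main value (a count within 1.5 times, a median within its 95% interval over domains), 25 moved further and 4 changed sign. The number of domains was 611 at 40 kb, 342 at 50 kb and 2487 when islands up to 1 kb apart were joined. The median log2 depth ratio was 0.0055 with the median ratio of regions set to 1, -0.58 without scaling and -0.0436 over merged regions. The median log2 count ratio was 0.14, -0.44 and -0.0411 in the same order, and -0.11 with dKO counts clipped to the domain. With the limit of a call lowered to 0.32 on the log2 scale, 130 domains were lower and 354 higher by counts, and 140 and 50 by depth; at a ratio of 2 these were 20, 91, 3 and 6. Clipping left 10 domains higher by counts. Merged regions, an alternative added after seeing the data for calls, left 5 higher by counts and 2 higher by depth. With the median ratio set to 1, 11 were lower by depth. Joining dKO islands left 172 divided domains and a median covered share of 100%, which was 97.6% at 25 kb, 98.4% at 40 kb and 98.6% at 50 kb. With gene bodies and 50 kb upstream, 71 downregulated and 73 upregulated genes met a domain. Unequal depth of the pools (81887244 and 57324761 counts) could not be evened out, since islands cannot be called again from counts.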

Other observations

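No island on the X chromosome reached 30 kb in either list, 0 of 1047 WT islands and 0 in dKO, whereas 1.84% of autosomal WT islands did. By chromosome, the share of WT islands that were domains ran from 0.877% on chromosome 13 to 2.80% on chromosome 11, which held 113 domains. The median whole-island depth ratio of domains lay below 0 on each of the 19 autosomes, from -0.14 on chromosome 14 to -0.01 on chromosome 13, a direction that rests on the scaling, since setting the median ratio of all merged regions to 1 adds 0.07 to each, and on the islands taken whole, since the medians over merged regions were 0.01 on chromosomes 8 and 17 and below 0 on the others.

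Domains on the list of least covered ones came in runs. Of the 12 domains with under 50% of their width under dKO islands, 2 adjoining domains lay at Plch2, and 2 lay at Sorcs2, where another domain between them met 9 dKO islands and was covered for 77.8% of its width. These runs were noticed after the values were seen and were not tested.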
